A study of Mus musculus with 4 samples.

Results

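The proteasome subunit genes were the protein-coding genes whose mouse symbol is Psm, a letter from a to g and a number. The rule found 48 of the 50600 genes counted, among 21764 protein-coding genes. The set held 8 alpha ring genes (Psma), 11 beta ring genes (Psmb), 6 ATPases (Psmc), 14 non-ATPase subunits (Psmd), 4 activators (Psme), 1 inhibitor (Psmf1) and 4 assembly chaperones (Psmg). The rule also excluded 6 genes of similar name, of which 4 were pseudogenes. RNA was sequenced from primary T-helper 2 (Th2) cells of mouse strain C57BL/6NJ. The file headers name 72 h and a sort, without stating how that time relates to the sort. The 4 libraries formed 1 group of biological replicates, each with its own biosample but the same donor identifier, so p-values here measure the spread between these samples, which may be technical. Age is given as unknown and sex as not collected. With no control, treatment or second cell type, genes were compared inside each library, and the 4 libraries with each other.

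The proteasome is the protease that destroys proteins marked with ubiquitin chains. Its core particle is a barrel of alpha rings, which form the gate, and beta rings, which hold the cutting sites, while a regulatory particle of ATPases and non-ATPase subunits binds ubiquitin chains, removes them and threads the substrate into the core. Lymphocytes are known for exchanging the constitutive catalytic subunits for the immunoproteasome subunits, which change the peptides made for antigen presentation.

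The total gene count was 1780682, 1857433, 1446040 and 1274431 in replicates 1 to 4, so a gene at 0 could still have had up to 1.62 to 2.35 CPM (counts scaled to a library total of 1e+06), the level of 3 counts. Of the markers checked, Il4, the signature Th2 cytokine, stood at 68.2 ± 3.31 TPM (counts per exon length, scaled to 1e+06; SD, n = 4). Il13, Cd4 and Gata3 stood at 97.8 ± 83.6, 25.5 ± 19.8 and 12.2 ± 7.82 TPM, and Cd3e and Il5 at 5.54 ± 2.90 and 5.27 ± 5.73 TPM (SD, n = 4). Of 7 markers of other cells, 5 had no count, Col1a1 had 2 counts in replicate 1, and the B cell gene Cd79a had 35, 41, 9 and 2 counts. The counts were made by strand, and genes whose exons lay across from exons of another gene held 83.6%, 91.5%, 90.9% and 79.9% of all counts. A TPM value here is therefore the counts assigned to a gene's annotated strand per length, and is not to be read as the mRNA level alone. Whether strand option 1 matches the strand of these libraries was not tested, and neither the labels nor the file headers say so. Were the setting the reverse of the library's, the values printed for each gene would count the strand opposite its mRNA, and this limit applies to each level, ratio and order of genes that follows.

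Of the 48 genes, 11 had at least 1 bp of exon facing another gene's exon on the other strand (an opposite exon), and the same 11 did so in the GENCODE M21 annotation. In 6 of these 11 pairs the gene on the other strand had more counts per kb in 4 of 4 libraries. The widest gap was at Psmb8, the immunoproteasome subunit that replaces Psmb5: Psmb8 had 73, 42, 49 and 53 counts over 2736 bp of exon, and the antisense gene Gm20496 had 6308, 8168, 6556 and 4290 counts over 663 bp. The 2 genes shared 186 bp, all of it in Psmb8 coding sequence, and Gm20496 stood at 8817 ± 903 TPM (SD, n = 4). The counts of the 2 genes did not overlap in range. Psmb7, a constitutive catalytic subunit, showed a similar order: it had 40, 22, 27 and 15 counts against 4049, 4844, 3940 and 2895 for Nek6, a mitotic kinase gene with which it shared 405 bp. The reverse order was seen at Psmc3, an ATPase of the regulatory particle, with 149, 153, 148 and 110 counts against 0, 9, 5 and 2 for the zinc transporter gene Slc39a13 across 215 bp. Coding exons of these 3 genes that hold part of the shared stretches are printed here, because counts there depend on which strand a fragment was assigned to. They hold 152 of the 405 bp of Psmb7, 68 of the 215 bp of Psmc3, and all but 4 bp in Psmb8. Each is given 5′ to 3′ on the strand of the proteasome gene (GRCm38/mm10, GENCODE M21 transcripts). Where transcripts differed, the shortest coding piece that held the stretch was printed, which need not lie in the main transcript. Capitals mark the bases also in an exon of the gene on the other strand.
Psmb8 exon, chr17:34199233-34199380, plus strand: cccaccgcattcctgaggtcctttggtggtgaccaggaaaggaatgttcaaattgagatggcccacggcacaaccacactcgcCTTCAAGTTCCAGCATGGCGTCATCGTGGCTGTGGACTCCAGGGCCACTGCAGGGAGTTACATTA
Psmb8 exon, chr17:34200141-34200270, plus strand: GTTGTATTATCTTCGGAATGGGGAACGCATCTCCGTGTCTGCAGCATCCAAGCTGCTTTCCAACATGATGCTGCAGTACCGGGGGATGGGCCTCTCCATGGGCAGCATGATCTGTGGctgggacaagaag
Psmb7 exon, chr2:38590697-38590848, minus strand: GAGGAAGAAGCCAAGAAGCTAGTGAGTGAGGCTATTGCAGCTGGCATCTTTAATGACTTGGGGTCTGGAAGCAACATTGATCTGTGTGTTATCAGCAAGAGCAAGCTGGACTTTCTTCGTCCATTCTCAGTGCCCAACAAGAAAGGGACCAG
Psmc3 exon, chr2:91063897-91063964, plus strand: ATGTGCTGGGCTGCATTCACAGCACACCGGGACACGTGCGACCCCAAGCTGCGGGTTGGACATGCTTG

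In Psmb8, 65 of the 148 bases of the first exon and 117 of the 130 bases of the second were shared, and the printed exons of Psmb7 and Psmc3 were shared over their whole length. The longest shared stretch was 1849 bp, between Psmd9, a chaperone of regulatory particle assembly, and the long noncoding RNA gene Gm26745. Over its whole length Psmd9 had 8, 1, 0 and 5 counts, and Gm26745 had 6, 17, 3 and 21. Psma4, an alpha ring gene, shared 114 bp with AY074887, which had 753, 746, 771 and 545 counts against 200, 64, 41 and 171. Psmb9, the immunoproteasome partner of Psmb6, shared 212 bp with the peptide transporter gene Tap1 and was the denser of the pair in each library, with Tap1 at 58, 43, 47 and 39 counts. Psmd13, a lid subunit, was likewise denser than the deacetylase gene Sirt3 across 342 bp, with Sirt3 at 37, 28, 21 and 12 counts. Psmd1, the large scaffold subunit, was less dense than the serotonin receptor gene Htr2b in replicates 1 and 2 and denser in replicates 3 and 4. Htr2b had 19, 7, 2 and 2 counts and shared 252 bp. The other 3 pairs shared 60 bp or less: Psme1 with Emc9, Psmd3 with Gm12356, and Psma5 with a gene that had no counts. Psmb10 had no shared exon, but the antisense gene Gm16156 inside its span had 449, 669, 489 and 343 counts.

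**Figure D1:**
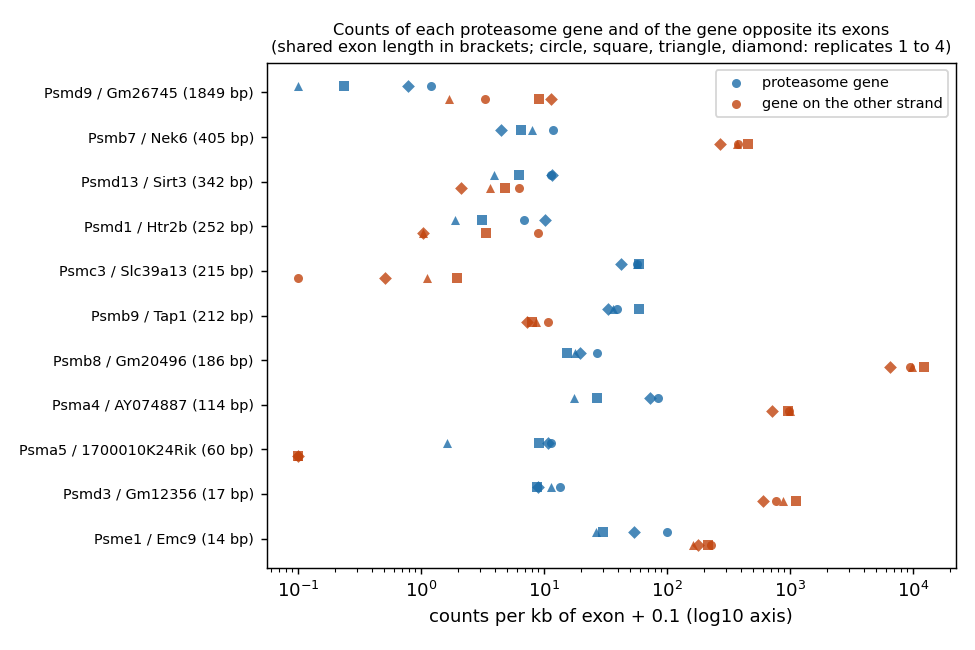
Counts per kb of exon (log10 axis, 0.1 added) for each of the 11 proteasome genes (blue) and the gene opposite its exons (orange), 1 marker per library, with the shared length in brackets. The orange points lie right of the blue ones in all 4 libraries for 6 pairs, farthest for Psmb8 and Gm20496, and left of them for 4 pairs, including Psmc3 and Psmb9.

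Of the 8 alpha ring genes, 7 were at 1 TPM or more in each library, and the remaining gene, Psma8, the germ cell form of Psma7, had no count in any library. Psma4 led the ring at 72.1, 20.5, 17.2 and 89.0 TPM in replicates 1 to 4, a mean of 49.7 ± 36.3 (SD, n = 4). Its values in replicates 1 and 4 were above those in replicates 2 and 3. Psma2, another ring subunit, stood at 39.8, 21.7, 2.10 and 83.6 TPM, and its counts were 44, 27, 2 and 64. Psma3 stood at 15.4, 3.70, 1.02 and 12.4 TPM, from 70, 19, 4 and 39 counts. Both had their lowest value in replicate 3, and their SD of log2 CPM over the 4 libraries, 1.89 and 1.48, was among the 4 widest of the 39 tested genes, those whose mean count reached 10. The somatic Psma7 stood at 27.3, 6.91, 7.11 and 32.9 TPM. Its log2 ratio to Psma8, with 1 added to each TPM, was 3.98 ± 1.13 (SD, n = 4; exact two-sided sign-flip permutation p = 0.13, 0.208 after Benjamini-Hochberg adjustment over the 5 pairs compared). With Psma8 at 0 that ratio was set by Psma7 and the added 1, and was 7.19 with 0.1 added. As Psma7 had counts in each library, the ratio could only be positive. The test was thus fixed at its smallest p and decides nothing about this pair. With 4 libraries 0.13 is the smallest p this test can give. Psma1, Psma5 and Psma6, which complete the ring, had means of 7.79 to 33.3 TPM.

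The beta ring showed 8 of 11 genes at 1 TPM or more in each library. Psmb1, a non-catalytic subunit, was highest at 53.6, 13.2, 12.5 and 90.5 TPM, with a mean of 42.4 ± 37.4 (SD, n = 4). Psmb11, the form made in thymic epithelium, had 0, 2, 0 and 0 counts. Psmb3, a structural subunit, had 22, 7, 0 and 29 counts, and its SD of log2 CPM was 2.20. Psmb2 and Psmb4, the remaining structural subunits, had means of 16.0 and 18.8 TPM. The catalytic genes fell into 3 pairs of a constitutive and an immunoproteasome form. Psmb5, the chymotrypsin-like site, stood at 20.6, 7.83, 4.56 and 41.1 TPM. Psmb8, which replaces it, stood at 22.8, 11.6, 17.8 and 23.9 TPM. Its SD of log2 CPM, 0.23, was among the 4 narrowest. Psmb8 was above Psmb5 in replicates 1 to 3 and below it in replicate 4, and the mean log2 ratio of -0.41 ± 1.04 (SD, n = 4) did not differ from 0 beyond that spread (exact sign-flip permutation p = 0.625, adjusted 0.625). Without replicate 3 the mean ratio was 0.03, and without replicate 4 it was -0.80.

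Psmb6, the caspase-like site, stood at 20.5, 2.02, 5.83 and 25.7 TPM. Psmb9, which replaces it, stood at 33.2, 45.2, 36.1 and 41.1 TPM, and was the higher of the pair in 4 of 4 libraries. The log2 ratio of Psmb6 to Psmb9 was -1.92 ± 1.58 (SD, n = 4; exact sign-flip permutation p = 0.13, adjusted 0.208), widest in replicate 2 at -3.93, and was -1.25 without that library. Psmb7, the trypsin-like site, stood at 9.99, 4.87, 7.84 and 5.41 TPM. Psmb10, which replaces it, rested on 4, 6, 0 and 13 counts and stood at 3.52 ± 4.08 TPM (SD, n = 4). Psmb7 was above Psmb10 in replicates 1 to 3 and below it in replicate 4, with a log2 ratio of 1.25 ± 1.64 (SD, n = 4; exact sign-flip permutation p = 0.375, adjusted 0.469). That ratio was 0.62 without replicate 3, where Psmb10 had no count, 1.90 without replicate 4, and 2.16 with 0.1 added in place of 1. In 1 of the 3 pairs, Psmb6 and Psmb9, the immunoproteasome form was thus the higher in each library, and neither form led throughout in the other pairs. Psmb7, Psmb8 and Psmb9 were also the 3 beta genes with an opposite exon, whose part in these ratios was not tested, and the limit on strand given above applies to these directions.

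The 6 ATPases, the ring that unfolds substrates, were at 1 TPM or more in each library, with a median of mean TPM of 32.2. Psmc3 stood at 48.8, 44.5, 56.4 and 52.0 TPM, a mean of 50.4 ± 5.03 (SD, n = 4), and its SD of log2 CPM of 0.28 was among the 4 narrowest. Psmc1 stood at 60.8, 24.0, 12.4 and 85.3 TPM. Unlike Psmc3, it had clearly lower values in replicates 2 and 3. Psmc2, Psmc4, Psmc5 and Psmc6 had means of 7.46 to 35.5 TPM, and each had its lowest value in replicate 2.

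Of the 14 non-ATPase genes, 10 were at 1 TPM or more in each library, and the median of mean TPM was 10.3. Psmd7, a lid subunit that pairs with the deubiquitinase, was the highest of the 48 genes, at 121, 72.4, 96.2 and 106 TPM and a mean of 98.9 ± 20.5 (SD, n = 4). It had no opposite exon, its 4 libraries lay within 1.68-fold, and its SD of log2 CPM, 0.19, was the narrowest of the 39. Psmd14, the deubiquitinase itself, had 82, 21, 0 and 69 counts and the widest SD, 2.91. In replicate 3 Psmd7 had 219 counts where its partner had none. Psmd3, a lid scaffold, stood at 11.4, 6.56, 11.2 and 10.9 TPM, with an SD of log2 CPM of 0.27. Psmd13 stood at 9.62, 4.71, 3.82 and 14.2 TPM. Psmd1 stood at 5.76, 2.29, 1.78 and 12.6 TPM. Both were highest in replicate 4 and lowest in replicate 3. Psmd10, an ankyrin-repeat chaperone of base assembly, had 11, 5, 0 and 2 counts. Psmd9, also a chaperone of base assembly, stood at 0.475 ± 0.491 TPM (SD, n = 4). The remaining 7 of the 14 genes, Psmd2, Psmd4, Psmd5, Psmd6, Psmd8, Psmd11 and Psmd12, had means of 4.74 to 26.4 TPM.

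Among the activators, which open the core without ubiquitin, Psme1 stood at 85.9, 22.6, 26.1 and 65.9 TPM. Psme2, its partner chain in the interferon-inducible activator, stood at 26.2, 3.87, 3.38 and 23.1 TPM. Psme1 was the higher in 4 of 4 libraries, with a log2 ratio of 2.02 ± 0.53 (SD, n = 4; exact sign-flip permutation p = 0.13, adjusted 0.208). Both chains had their lower values in replicates 2 and 3. Psme3, the nuclear activator, and Psme4 had means of 8.28 and 3.47 TPM. The inhibitor Psmf1 had 9, 1, 2 and 20 counts. Of the assembly chaperones of the core, Psmg3 had no count, Psmg1 stood at 9.32 ± 5.34 TPM (SD, n = 4), and Psmg2 and Psmg4 were at 0 in 1 library each. Over the whole set, 44 of 48 genes had a mean of at least 1 TPM and 36 reached that level in each library. The median of mean TPM over the 39 tested genes was 14.1, beside 10.2 over the 7752 genes of the files past the same minimum. The order differed by kind: the 29 members without an opposite exon had a median of 14.1 beside 6.02 for all such genes, and the 10 with one had 14.5 beside 24.4.

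**Figure D2:**
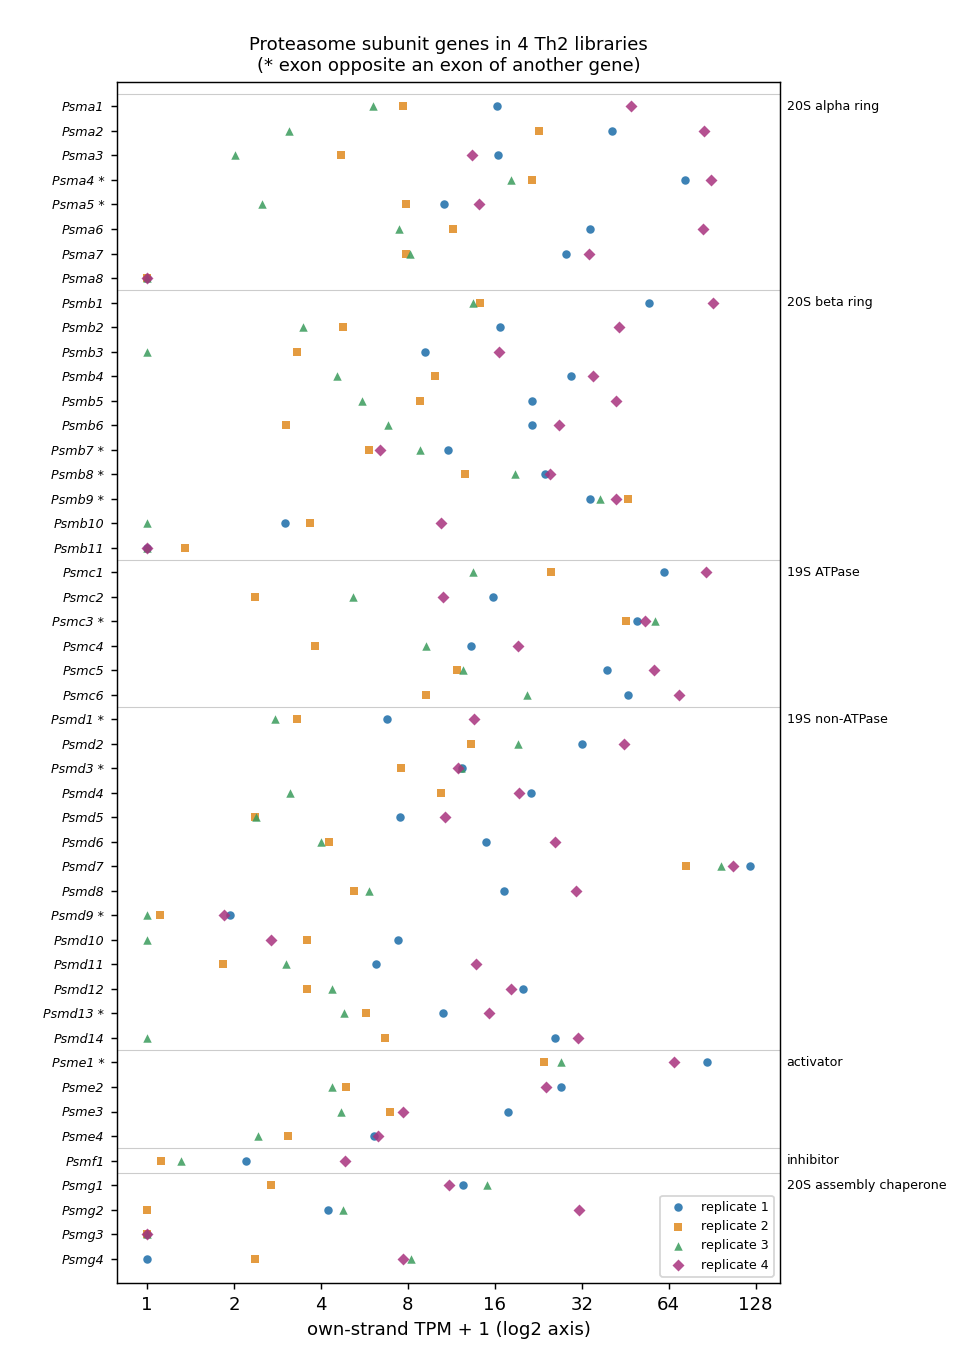
Own-strand TPM (1 added, log2 axis) of the 48 genes in each of the 4 libraries, ordered by role, with an asterisk on the 11 genes that have an exon opposite another gene. Psmd7 and Psmc3 hold 4 close points, while Psmd14, Psmb3 and Psma2 spread widely and have their lowest point in replicate 3.

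Core (alpha and beta ring) and regulatory (ATPase and non-ATPase) genes were then compared within each library. The median TPM of the 19 core genes was 20.5, 6.88, 4.56 and 32.9 in replicates 1 to 4, and that of the 20 regulatory genes was 15.5, 4.46, 3.98 and 18.4. The core median was the higher in 4 of 4 libraries, and both medians were lower in replicates 2 and 3. On the log2(TPM + 1) scale the difference was 0.39, 0.53, 0.16 and 0.81, a mean of 0.47 ± 0.27 (SD, n = 4). Among the members without an opposite exon the mean difference was 0.04, and without Psma8, Psmb11, Psmd5, Psmd9 and Psmd10 (tissue-restricted forms and assembly chaperones) it was 0.21. Within the regulatory particle the ATPases (median of mean TPM 32.2) stood above the non-ATPase genes (10.3), and the alpha and beta rings (18.5 and 16.0) lay between. As these genes were chosen with earlier results known, the difference is given without a test.

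**Figure D3:**
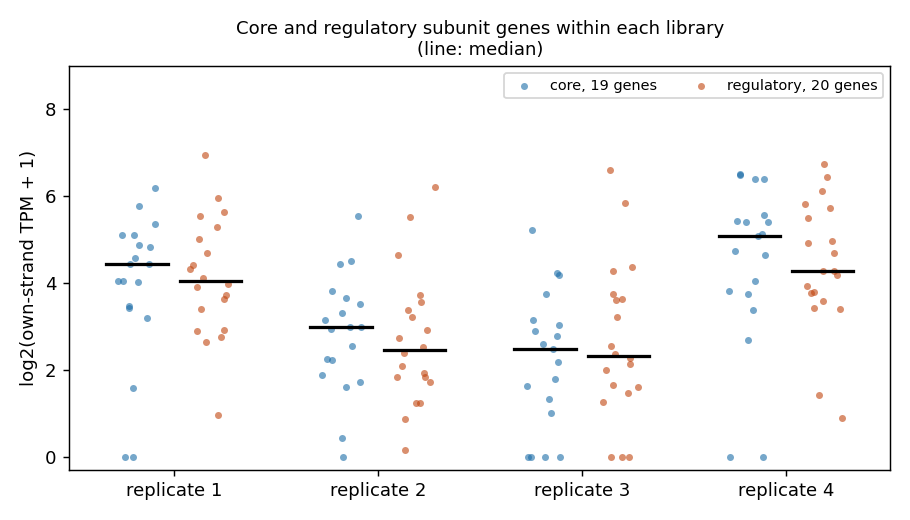
log2(own-strand TPM + 1) of the 19 core genes (blue) and 20 regulatory genes (orange) in each library, with the median as a line. The core line lies above the regulatory line in each library, by 0.16 to 0.81, and the points of the 2 classes overlap over most of their range.

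The set as a whole took a different share of the counts in each library. It held 3000, 1417, 1145 and 2627 counts, or 0.168% (95% Wilson interval 0.163 to 0.175), 0.0763% (0.0724 to 0.0804), 0.0792% (0.0747 to 0.0839) and 0.206% (0.198 to 0.214) of the total. Replicates 1 and 4 were above replicates 2 and 3 by more than these intervals, which cover counting error only. Replicates 1 and 4 were also the libraries with the smaller share of counts in genes with an opposite exon, and the part of that share in the result was not tested directly. Counted among genes without an opposite exon alone, members of that kind held 0.684%, 0.475%, 0.458% and 0.726%. The order of replicates 1 and 4 over 2 and 3 was thus the same, with a smaller ratio between the libraries. Of the T cell markers, Il13, Cd4 and Gata3 also had their lower counts in replicates 2 and 3. Il13 had 150, 62, 40 and 208 counts, Cd4 148, 78, 22 and 165, and Gata3 63, 25, 32 and 73. Il4 (104, 110, 84 and 64), Cd3e (19, 17, 22 and 32) and Il5 (6, 7, 1 and 17) did not keep that order. In RNA from many cells, fewer cells of a type and less RNA per cell cannot be told apart, and neither was tested. A difference between the libraries themselves, such as in the share of counts in genes with an opposite exon, was not tested either.

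Gene by gene, 24 of the 39 tested genes were highest in replicate 4 and 11 in replicate 1 (log2 CPM, TMM-scaled), beside 35.6% and 20.3% of the 7752 genes. In replicate 3, 23 of the 39 were lowest, beside 31.3% of all genes, and these included 7 of the 7 alpha ring genes counted. Of the 29 members without an opposite exon, 20 (68.97%) were highest in replicate 4, beside 52.1% of the 3827 genes of that kind. Highest in replicate 1 were 8 (27.6%), beside 27.8%, which was no excess. Lowest in replicate 3 were 19 (65.5%), beside 44.2%. Of the 10 members with an opposite exon, 4 were highest in replicate 4 and 3 in replicate 1. All genes of that kind came to 19.5% and 13.04%. Lowest in replicate 3 were 4 of the 10, beside 18.7%. The median deviation of the 39 genes from the 4-library mean was 0.59, -0.58, -0.86 and 0.87 in replicates 1 to 4, beside 0.13, -0.00, -0.08 and 0.14 for all genes. Leaving out 1 other library at a time, it ran from 0.30 (without replicate 3) to 0.95 (without replicate 4) in replicate 1, and from -0.91 (without replicate 3) to -0.36 (without replicate 4) in replicate 2. It ran from -1.12 (without replicate 2) to -0.57 (without replicate 4) in replicate 3, and from 0.52 (without replicate 3) to 1.15 (without replicate 1) in replicate 4. For the 29 members without an opposite exon it was 0.66, -0.73, -1.05 and 1.00, beside 0.46, -0.40, -0.51 and 0.71 for the 3827 genes of that kind. Those genes of the files had the same signs as the proteasome genes in each library. For the 10 members with an opposite exon it was 0.29, -0.26, -0.23 and 0.18, while the 3925 genes of that kind had -0.10, 0.26, 0.16 and -0.26. These 10 members had signs opposite to the genes of their kind in each library. Scaled by total counts, the median of all genes moved to 0.24, -0.23, -0.20 and 0.36, that of the 10 members to 0.40, -0.49, -0.36 and 0.41, and that of the genes of their kind to 0.01, 0.03, 0.04 and -0.03. Relative to the genes of their kind, the 10 members were thus above in replicates 1 and 4 and below in replicates 2 and 3 under both scalings. By class, replicate 3 stood at -1.16 for the 16 core genes and -0.74 for the 18 regulatory genes, and no test of that difference was made. The median SD of log2 CPM was 1.16 for members without an opposite exon and 0.54 for those with one, beside 0.94 and 0.52 over all genes of each kind.

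**Figure D4:**
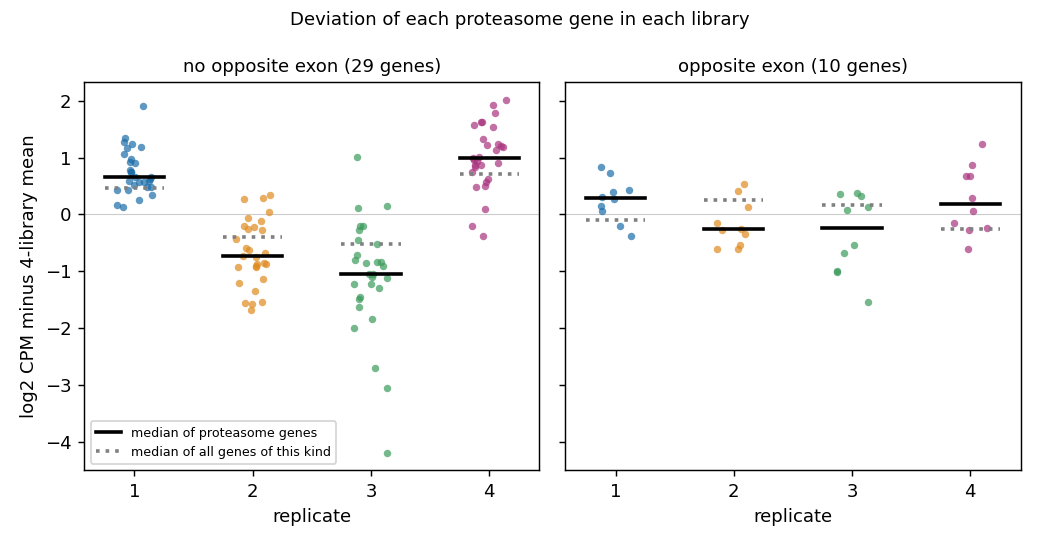
log2 CPM minus the 4-library mean of each tested gene, by replicate, for 29 genes without (left) and 10 genes with (right) an opposite exon. Black lines are medians of the proteasome genes and dotted lines medians of all genes of that kind, which share their sign with the black lines on the left and, under this TMM scaling, not on the right. With total counts the dotted line on the right turns positive in replicate 1.

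A chi-square test of each gene's 4 counts against Poisson sampling, with Benjamini-Hochberg adjustment over all genes tested, called 35 of the 39 genes, beside 88.2% of all genes tested. The share in the set was near that background. The 4 genes not called were Psma5, Psmb7, Psmb8 and Psmd3, each of which had an opposite exon. All 29 members without an opposite exon were called, beside 88.3% of such genes in the files, and 6 of the 10 with one, beside 88.1%.

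With the spread between replicates in the model, edgeR (quasi-likelihood), setting every library in turn against the remaining 3, called 0 of the 39 genes, beside 0.0516% of all genes. At an unadjusted p under 0.05 there were 7 members lower in replicate 3, 3 higher in replicate 4 and 0 in replicates 1 and 2. All genes past that level came to 9.37%, 8.81%, 0.426% and 2.79% in replicates 3, 4, 1 and 2. DESeq2 also called 0 of these genes. The smallest adjusted p by edgeR was 0.0948, for Psmd14 in replicate 3, where it had no count. The calls turned on which library was left out, with the single library then assumed to vary like the others. Without replicate 1, Psma1, Psma4, Psma6 and Psmb1, all of the core, were called higher in replicate 4 (adjusted p 0.0285 to 0.0459 by edgeR), 4 of 39 beside 6.82% of all genes. Without replicate 2, edgeR called 9 of 41 members lower in replicate 3, beside 8.11% of all genes. They were the alpha genes Psma1, Psma2, Psma3, Psma4 and Psma6, the beta genes Psmb3 and Psmb4, the ATPase Psmc1 and the deubiquitinase Psmd14, with adjusted p from 4.50e-05 to 0.0431. Without replicate 3 or without replicate 4, no member was called in any library, though some other genes were. DESeq2 was not run with a library left out. Of the members named in these fits only Psma4 had an opposite exon. Over all tested genes without an opposite exon, the median deviation from the 4-library mean was -0.51 in replicate 3 and 0.71 in replicate 4. For genes with one it was 0.16 and -0.26. The shares called were not split by kind, so they mix these opposite shifts.

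Other genes of the ubiquitin-proteasome system were read in the same way, from a list of 34 of which 33 were matched. It held further subunits, assembly and shuttle factors, ubiquitin genes, transcription factors and antigen-processing genes. Among the highest were the class I light chain B2m at 152 ± 130 TPM, the ubiquitin fusion gene Rps27a at 67.0 ± 50.9 and the polyubiquitin gene Ubb at 43.0 ± 24.4 (SD, n = 4). Rps27a had an opposite exon. B2m, with 205, 48, 43 and 218 counts, was lower in replicates 2 and 3. The median deviation of the 28 list genes with enough counts was 0.58, -0.68, -0.65 and 0.92, and 26 of the 28 varied beyond Poisson sampling, a share of 92.9% near the 88.2% of all genes tested. By edgeR 0 of the 28 were called in any library. At an unadjusted p under 0.05, 5 were lower in replicate 2, 3 lower in replicate 3, 5 higher and 1 lower in replicate 4, and 0 in replicate 1. Over all genes that level was passed by 2.79%, 9.37%, 8.81% and 0.426% in replicates 2, 3, 4 and 1, in either direction.

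Promoters, windows around RefSeq gene starts (GRCm38.p6) that lie mostly upstream, were found for 40 of the 48 genes, 43 promoters in all. The core of the antioxidant response element, TGACNNNGC, to which the proteasome gene activator Nfe2l1 is known to bind, was searched on both strands. It lay in 6 of 43 promoters (14.0%), beside 12.4% of all 32851. CCAAT, the NF-Y box, lay in 14 (32.6%), beside 37.4%. TTCNNNGAA, the STAT element, lay in 3 (6.98%), beside 8.30%. All 3 shares were near those of all promoters. A match is a description of the letters and not of binding. Psmb5 and Psmb6, both constitutive catalytic genes, each held a match to the first motif, printed on the gene's strand with the motif in capitals and ending before the start site.
Psmb5, chr14:54618004-54618072, minus strand: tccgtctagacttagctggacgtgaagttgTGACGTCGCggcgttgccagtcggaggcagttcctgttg
Psmb6, chr11:70525318-70525356, plus strand: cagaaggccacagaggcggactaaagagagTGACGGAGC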

How the data were processed

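The deposited files hold unnormalized fragment counts for each gene. The authors made these counts, per the file headers, with featureCounts 1.4.6-p4 on STAR alignments to mm10 with GENCODE M13 and strand option 1. No version of STAR is given in these sources. Total RNA-seq is the assay the labels name, but the linked protocol is named for poly(A)+ RNA. Symbols came from GENCODE M21 by identifier (50376 of 50600). TPM was computed from counts and exon length. The test genes had a mean count of at least 10 (7752 genes), with TMM scaling, in edgeR 4.0.16 (R 4.3.3), with DESeq2 1.42.0 as an alternative. The scripts were tested on simulated data. For edgeR the simulated spread between libraries was smaller than here, where the common coefficient of variation was 0.575. The power of that test at the spread of these libraries was not tested. Opposite exons were found with bedtools 2.31.1 (1 bp). Calls used an adjusted p of 0.05. Detection needed 1 TPM.

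The members, lists, pairs and tests were chosen with earlier results of these data known. Per-library values are given for the 5 pairs, the 6 highest and 4 lowest genes by mean TPM, the 4 with the widest and 4 with the narrowest SD of log2 CPM, called genes, the 8 with most opposite exon, and the 4 highest genes of the other list, of which 1 is not reported here. Files listing the deposits were not used.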

Additional observations from a re-analysis of the deposited data

Results flagged for a closer look

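Among the 39 tested genes, Psmd3 had 1 library far from the others on the TPM scale. It stood at 6.56 TPM in replicate 2 and between 10.9 and 11.4 TPM in the other 3. The gap took 0.911 of the range of its 4 values, above Dixon's 95% critical value for 4 samples. Chance flags about 1 gene in 20. On the log2 CPM scale the deviations of Psmd3 were 0.06, -0.26, 0.36 and -0.16, so replicate 2 was not set apart there. The chi-square test against Poisson sampling did not call Psmd3 (adjusted p 0.135).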

How the results depend on the processing

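Of 86 alternatives to 17 results, 77 kept the direction and the side of the threshold or stayed within the spread. The core minus regulatory difference was 0.0442 among members without an opposite exon, against 0.47, and 0.36 to 0.58 leaving out each library. The Psmb5 to Psmb8 log2 ratio ran from -0.80 to 0.0335 leaving out each library, and changed sign without replicate 3. Genes detected in each library numbered 15 at 5 TPM, against 36 at 1 TPM. Members called in 1 library ran from 0 to 9 leaving out each library, an alternative chosen after seeing the data, with 4 called without replicate 1 and 9 without replicate 2. Among genes without an opposite exon, the share of counts was 0.684%, 0.475%, 0.458% and 0.726% in replicates 1 to 4. The causes of the changes among settings were not tested, beyond the fewer genes or libraries each one used. No paired analysis was possible because there was 1 group. With no filter on low counts, 40 of 46 members varied beyond Poisson sampling, against 35 of 39 with it. The share over all genes without the filter is not given. The core minus regulatory difference was 0.21 without tissue-restricted forms and assembly chaperones. Depth limits genes such as Psmb10 and Psmf1, whose mean count was under 10.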
